A study of Mus musculus with 2 samples.

Results

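Mast cells and basophils made up 56 of the 22963 annotated lung cells: 31 of 9454 in the 5E1 library and 25 of 13509 in the IgG library. They were taken from the authors' cluster 3, 1 of 23 clusters, as the cells with at least 5 UMIs (unique molecular identifiers, each standing for 1 captured transcript molecule) summed over Mcpt8, Prss34, Cma1, Mcpt4, Tpsb2 and Cpa3. These 6 genes encode granule proteases, and their counts chose the cells, so their levels are given as a description. The study asked how blockade of Hedgehog signalling affects the formation of alveolar septa after birth. Whole lungs of Gli1CreERT2/+,R26RtdT/+ pups were dissociated on postnatal day 6 and profiled with the droplet-based 10x Genomics 3' chemistry. All pups carried a tamoxifen-inducible Cre at the Gli1 locus and a Cre-dependent tdTomato reporter, and all received tamoxifen on day 1. The 5E1 pups received the ligand-blocking antibody 5E1 on day 3 and the IgG pups a control IgG on the same day. Lungs of 3 pups were pooled per condition, which gave 2 libraries, 1 for each condition.

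Because each condition was represented by 1 library, differences could not be checked against replicates and no test was made. Intervals are exact 95% intervals that cover counting error only. They are Clopper-Pearson intervals for shares, Poisson intervals for sums and conditional binomial intervals for ratios, which treat numbers of cells as Poisson counts where shares are compared. Levels are given as CPM, the UMIs of a gene scaled to the total UMIs of the same cells. The 5E1 library held 58890639 UMIs and the IgG library 77436890, with medians of 4636 and 4541 UMIs per annotated cell.

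Basophils and mast cells are granule-filled blood-derived cells that bind IgE through a high-affinity receptor and release histamine, proteases, lipid mediators and cytokines. Mast cells mature in tissue and store chymases, tryptases and carboxypeptidase A3, whereas basophils mostly circulate and carry the proteases encoded by Mcpt8 and Prss34. In the mouse lung around birth, basophils are known as a source of cytokines and growth factors that act on neighbouring macrophages.

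The protease genes that chose the cells lie in 2 gene clusters and at 1 separate locus of the mm10 genome. On chromosome 14, Cma1 (mast cell chymase, 55941451 to 55944675, minus strand), Mcpt4 (56059629 to 56062313, minus strand) and Mcpt8 (56082166 to 56085273, minus strand) are neighbours, with Mcpt1, Mcpt9 and Mcpt2 between them. On chromosome 17, Prss34 (25298394 to 25300165, plus strand) lies near the tryptase genes Tpsab1 (25343245 to 25345562, minus strand) and Tpsb2 (25366305 to 25369098, plus strand). Cpa3 lies on chromosome 3 (20215620 to 20242181, minus strand). The cells are called basophil-like or mast-like below by the UMIs of Mcpt8 and Prss34 against those of Cma1, Mcpt4 and Tpsb2, so the levels of these 5 genes follow from that choice. Tpsab1, which the choice did not use, was at 0 in the basophil-like cells of both libraries. Prss34 had 15 UMIs in the mast-like cells of 5E1 and 10 in those of IgG, while Mcpt8 was at 0 in both. The tryptase genes Tpsb2 and Tpsab1 resemble each other in sequence, as do the chymase genes, so the split of UMIs between such neighbours is uncertain.

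The promoters of 5 of the protease genes are shown because these genes separate the cells, from 250 bases before to 50 bases after each start as given by RefSeq for build GRCm38.p6. Capitals mark AGATAA or TGATAA, on either strand (TTATCT or TTATCA on the strand shown), 2 forms of the motif read by GATA factors such as Gata2. Prss34 lies at chr17:25298144-25298443 on the plus strand, and the minus-strand promoters are Mcpt8 at chr14:56085148-56085447, Mcpt4 at chr14:56062261-56062560, Cma1 at chr14:55944626-55944925 and Cpa3 at chr3:20242132-20242431.
Prss34: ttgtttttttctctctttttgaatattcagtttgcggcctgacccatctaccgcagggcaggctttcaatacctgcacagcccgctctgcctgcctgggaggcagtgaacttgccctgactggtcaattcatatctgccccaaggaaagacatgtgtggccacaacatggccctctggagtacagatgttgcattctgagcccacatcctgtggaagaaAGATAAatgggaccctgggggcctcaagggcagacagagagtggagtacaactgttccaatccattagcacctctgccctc
Mcpt8: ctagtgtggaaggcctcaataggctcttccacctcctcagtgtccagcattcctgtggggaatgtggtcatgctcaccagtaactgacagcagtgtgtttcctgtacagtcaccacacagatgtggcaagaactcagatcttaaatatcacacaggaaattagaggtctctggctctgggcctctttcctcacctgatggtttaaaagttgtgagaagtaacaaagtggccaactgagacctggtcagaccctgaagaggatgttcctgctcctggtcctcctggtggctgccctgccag
Mcpt4: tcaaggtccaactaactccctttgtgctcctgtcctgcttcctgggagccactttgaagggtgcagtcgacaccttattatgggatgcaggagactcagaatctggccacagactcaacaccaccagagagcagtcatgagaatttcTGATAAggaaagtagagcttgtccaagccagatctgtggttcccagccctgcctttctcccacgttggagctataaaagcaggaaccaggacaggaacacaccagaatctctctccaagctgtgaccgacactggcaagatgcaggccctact
Cma1: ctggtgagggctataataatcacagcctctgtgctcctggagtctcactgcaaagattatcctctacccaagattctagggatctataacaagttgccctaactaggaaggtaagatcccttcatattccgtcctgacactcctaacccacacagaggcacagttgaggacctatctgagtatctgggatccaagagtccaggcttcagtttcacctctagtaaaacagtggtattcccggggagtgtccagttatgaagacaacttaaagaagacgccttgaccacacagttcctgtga
Cpa3: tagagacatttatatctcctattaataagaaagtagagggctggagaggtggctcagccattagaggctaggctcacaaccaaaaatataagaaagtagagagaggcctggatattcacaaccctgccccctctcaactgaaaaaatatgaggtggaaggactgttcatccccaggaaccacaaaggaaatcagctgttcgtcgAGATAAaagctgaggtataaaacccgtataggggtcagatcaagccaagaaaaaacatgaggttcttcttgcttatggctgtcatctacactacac
Prss34 and Cpa3 each held 1 match to AGATAA and Mcpt4 held 1 match to TGATAA, while the windows of Mcpt8 and Cma1 held neither. Of all 32851 promoters of the same length in the RefSeq table, 11.2% held AGATAA, 9.05% held TGATAA and 18.6% held either. The windows of the IgE receptor genes Fcer1a and Ms4a2 held 1 and 3 matches to AGATAA. Of the 13 genes found in the table, 8 held a match to either motif in a window and 5 (Mcpt8, Cma1, Hdc, Gata2 and Ccl3) held none. These matches describe letters in a window and are not binding sites. The other genes of the 16 looked for had no entry.

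Within cluster 3, the cells fell into basophil-like and mast-like cells with nothing between them. Each cell was placed by the share of its Mcpt8, Prss34, Cma1, Mcpt4 and Tpsb2 UMIs that came from Mcpt8 and Prss34, at least 80% for basophil-like and at most 20% for mast-like. By this measure 24 of 31 cells in the 5E1 library and 22 of 25 in the IgG library were basophil-like, and 6 and 3 were mast-like. No cell was mixed in either library, with upper Clopper-Pearson bounds of 11.2% in the 5E1 and 13.7% in the IgG library. A further 5E1 cell held 6 UMIs of Cpa3 and none of the other proteases and was left undetermined. In total 46 cells were basophil-like and 9 were mast-like. Of the markers outside the rule, Il6 was higher in the basophil-like cells of each library, and Tpsab1, Kit, Mrgprb1 and Mrgprb2 were detected in the mast-like cells of each. Cyp11a1 and Il4, which were also listed for basophils, did not separate the cells. Cyp11a1 had 997 CPM in basophil-like and 1772 in mast-like cells of 5E1, and 1092 and 1309 CPM in those of IgG. The integrin genes Itga2, with 1 UMI in 5E1 and 0 in IgG, and Itgam, with 2 in each, were near 0 in the basophil-like cells. Of the other markers listed for mast cells, Mcpt1 and Mcpt9 were at 0 in both kinds of cell. Mitf had 2 UMIs in the mast-like cells of 5E1 and 0 in those of IgG. Slc18a2 had 5 and 1 UMIs in mast-like cells, and 2 and 2 in basophil-like cells. Mcpt2 and Tph1 are given below.

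**Figure D1:**
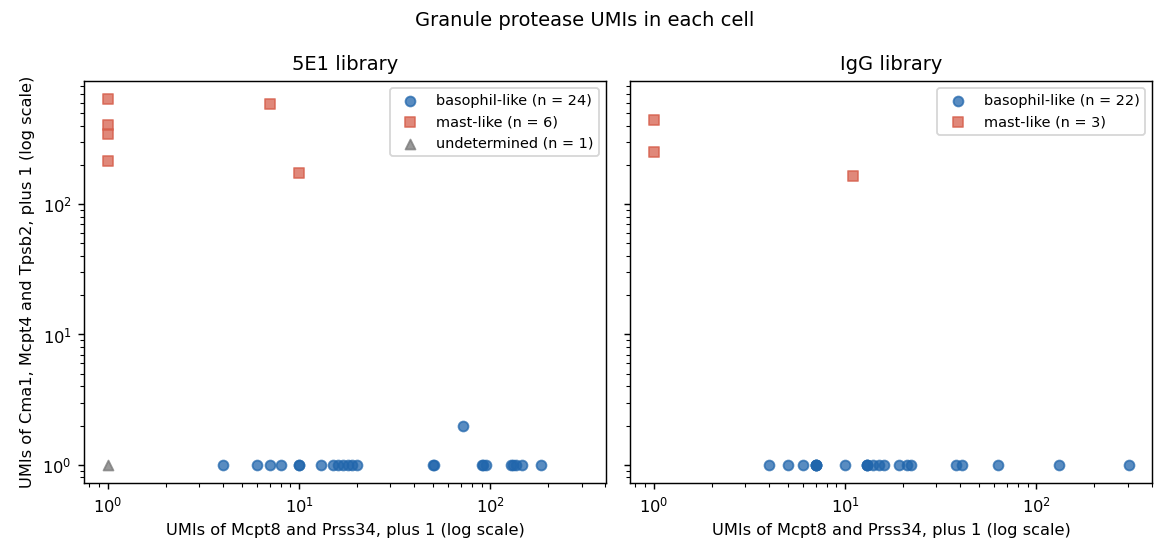
Each point is 1 cell, with its UMIs of Mcpt8 and Prss34 plus 1 on the horizontal axis and of Cma1, Mcpt4 and Tpsb2 plus 1 on the vertical axis, both on log scales (5E1 left, IgG right). The 24 basophil-like cells of 5E1 and 22 of IgG lie along the bottom, the 6 and 3 mast-like cells lie at the top left, and no cell lies between them.

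The rule's threshold of 5 UMIs passed through a thinly filled range of cluster 3. The cells just inside it, with 5 or 6 UMIs of the 6 genes, numbered 4 in the 5E1 library and 5 in the IgG library. Those just outside it, with 3 or 4 UMIs, numbered 6 in the 5E1 and 3 in the IgG library, and 337 and 357 cluster 3 cells had none. The cells kept held a median of 52 UMIs of these genes in the 5E1 library (range 5 to 685) and of 15 in the IgG library (range 5 to 470).

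The mast cells and basophils made up 0.328% of annotated cells in the 5E1 library (interval 0.223 to 0.465%) and 0.185% in the IgG library (0.120 to 0.273%), a ratio of 1.77 (1.01 to 3.13). Within cluster 3 they were 31 of 388 cells in the 5E1 library and 25 of 399 in the IgG library, 7.99% and 6.27%, a ratio of 1.28 (0.729 to 2.25). The basophil-like share was 0.254% in the 5E1 and 0.163% in the IgG library (ratio 1.56, 0.837 to 2.92). The mast-like share was 0.0635% in the 5E1 and 0.0222% in the IgG library (ratio 2.86, 0.610 to 17.7). The interval of the first of these ratios lay just above 1 and those of the other shares included 1. With 1 pool of pups behind each share, none of these ratios can be told apart from a difference between pools. All of them count only cells of cluster 3 with at least 5 UMIs of the 6 genes. Outside it, 2 cells of 5E1 and 11 of IgG lay on the basophil side, and 8 and 4 on the mast side. Without the limit to cluster 3 the cells numbered 45 in the 5E1 and 41 in the IgG library, so the ratios depend on that limit.

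The cells differed in depth between the libraries. Their median was 2798 UMIs per cell in the 5E1 library (range 1437 to 5427) and 2222 in the IgG library (range 1412 to 3731), against 2861 and 2444.5 in the other cells of cluster 3. The sex of the pooled pups also differed. A UMI of the X-inactivation transcript Xist was found in 7 of 31 cells of 5E1 and 16 of 25 of IgG, and a UMI of the Y-linked genes Ddx3y, Eif2s3y, Kdm5d or Uty in 8 of 31 and 0 of 25. The sex of the pups and the treatment cannot be told apart across the libraries. Ratios were also taken after thinning every cell to 1000 UMIs, and in the 5 basophil-like cells of 5E1 and 14 of IgG with Xist and no Y-linked UMI. They are given for some of the genes. Transcripts of other cells were also present. The club cell transcript Scgb1a1, named here after its value was seen, had 200 UMIs in the 5E1 cells and 292 in the IgG cells, 2277 and 5200 CPM, against 2458 and 3960 CPM in the other cells of cluster 3. The 4 alveolar macrophage markers (Chil3, Ear1, Ear2 and Marco) were at 0 in both libraries, and the 6 T cell markers summed to 5 UMIs in each. The 4 markers of type 2 alveolar cells, mostly the surfactant gene Sftpc, summed to 55 UMIs in the 5E1 and 43 in the IgG cells, 626 and 766 CPM. By 2 or more UMIs of 1 list of T, NK, B, neutrophil, macrophage or fibroblast markers, 7 of 31 and 7 of 25 cells could be doublets. No cell held 2 UMIs of the division genes in either library, against 9 of 357 and 11 of 374 other cluster 3 cells. The libraries shared 184 barcodes, of which 1 belonged to a cell described here, in the 5E1 library.

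Few cells supplied a large part of several transcripts of the whole lung. The 31 cells of the 5E1 library held 98.4% of that library's Prss34 UMIs, 81.5% of Mcpt8, 76.1% of Mcpt4 and 72.5% of Tpsb2, and the 25 cells of the IgG library held 69.0%, 54.1%, 75.2% and 80.8% of theirs. Of the genes outside the rule, Cd200r3, an activating receptor of basophils and mast cells, had 70.2% of its UMIs in these cells in the 5E1 and 43.0% in the IgG library. Il4, the cytokine of type 2 immunity, had 51.4% in the 5E1 and 50.8% in the IgG library. Cyp11a1, the enzyme that starts steroid synthesis, had 54.1% and 34.8%. Il6 had 35.8% of its UMIs here in the 5E1 and 25.9% in the IgG library. For the chemokine genes Ccl4 and Ccl3 these shares were 34.1% and 31.3% in the 5E1 and 19.1% and 20.3% in the IgG library. Osm, which encodes the cytokine oncostatin M, had 13.9% and 9.29%. Which genes the authors clustered on is not given in the sources used here, so these shares are a description. The limit of 5 UMIs left out the other cells of cluster 3, which held 116 Il6 UMIs in 5E1 and 137 in IgG. They also held 28 and 17 UMIs of Il4 and 20 and 22 of Cd200r3. Whether basophils with few protease UMIs are among them was not tested. The limit to cluster 3 left out 2 basophil-side cells of 5E1 and 11 of IgG, whose UMIs are not in these shares. In other clusters 0 cells of 5E1 and 3 of IgG held at least 10 Prss34 UMIs. The shares of the 2 libraries are thus not like for like.

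**Figure D2:**
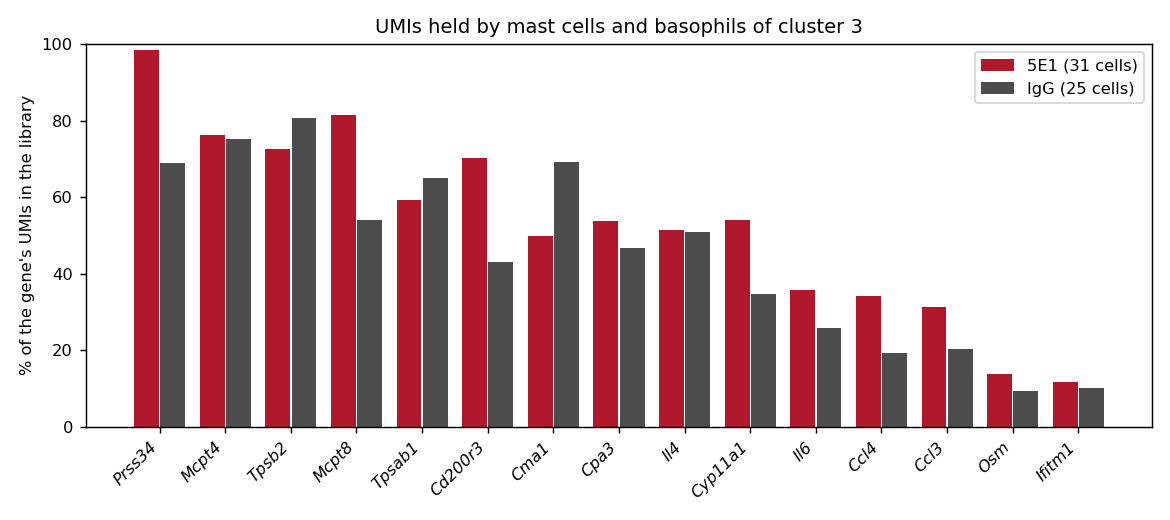
Bars give the percentage of each gene's UMIs in a library that lay in the mast cells and basophils of cluster 3, 5E1 left and IgG right of each pair, for the 15 genes with the highest fold over all other annotated cells. Prss34 stood at 98.4% in the 5E1 and 69.0% in the IgG library, and Ifitm1 at 11.8% and 10.2%.

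The 9 mast-like cells were described by their summed UMIs, since 6 and 3 cells allow no comparison of levels between the libraries. Cma1 had 1027 UMIs in the 6 cells of 5E1 and 436 in the 3 cells of IgG, 51995 and 57076 CPM. Tpsb2 had 772 UMIs in 5E1 and 298 in IgG, 39085 and 39010 CPM, and Tpsab1 352 and 95 UMIs. Cpa3, carboxypeptidase A3 of the mast cell granule, had 228 and 67 UMIs. Each of the 9 cells held at least 88 UMIs of Cma1. Kit, the stem cell factor receptor on which mast cells depend, was at 0 in the basophil-like cells of both libraries and had 12 UMIs in the mast-like cells of 5E1 and 6 in those of IgG. Mrgprb2, the receptor for basic secretagogues that marks connective tissue mast cells, had 23 and 6 UMIs, and Mrgprb1 15 and 3. Tph1, which makes serotonin, had 7 and 2.

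The mast-like cells varied in their chymases. Mcpt4 was found in 5 of 6 cells of 5E1, with 7, 42, 112, 125 and 266 UMIs, and in 1 of 3 cells of IgG, with 115. The 5E1 cell without Mcpt4 was the deepest, with 5427 UMIs, and held 377 UMIs of Cma1. It also held 49 of the 50 UMIs of Mcpt2, a chymase of mucosal mast cells, in the mast-like cells of that library; those of IgG had none of Mcpt2. The other cells without Mcpt4, both of IgG, held 154 and 118 UMIs of Cma1. Prss34 was present in 2 mast-like cells of 5E1, with 9 and 6 UMIs, and in 1 of IgG, with 10. Chemokine transcripts were uneven. Ccl2 had 48 UMIs in 5E1 and 1 in IgG, Ccl7 43 and 0, and Ccl1 25 and 0, and a single 5E1 cell held 41, 40 and 21 of those 5E1 UMIs. That cell was the only mast-like cell of 5E1 that could be a doublet, and 2 of the 3 mast-like cells of IgG could be, 1 of them the cell with 10 UMIs of Prss34. Of 17 Il13 UMIs in the mast-like cells of 5E1, 10 were in the cell rich in Ccl2, and those of IgG held 1.

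Outside the genes of the rule, some chemokine and cytokine transcripts were higher in basophil-like than in mast-like cells. Of 853 genes with at least 20 UMIs in these cells, 4.81% were 2-fold higher in basophil-like cells in each library and 5.16% were 2-fold higher in mast-like cells in each, with sums under 3 UMIs set to 3. Of 81 listed genes outside the rule, 12 were 2-fold higher in basophil-like cells in each library and 5 were 2-fold higher in mast-like cells. Without the cells that could be doublets, these counts were 9 and 4 of 71 genes. The 12 included 5 of 8 measured chemokine genes, which encode attractants for monocytes, neutrophils and lymphocytes. The other chemokine genes, Ccl1, Ccl2 and Ccl7, lay on the mast side in 5E1 and had at most 1 UMI in either kind of cell of IgG. Ccl3 had 17066 CPM in basophil-like and 1468 in mast-like cells of 5E1. In the IgG library it had 19209 CPM in basophil-like cells and none in mast-like cells, at least 39.7-fold higher by the lower 95% bound. Ccl4 had 20948 CPM in basophil-like and 1519 in mast-like cells of 5E1, and 22527 and 1178 CPM in those of IgG. Ccl9 had 459 UMIs in basophil-like and 3 in mast-like cells of 5E1, and 326 and 1 in those of IgG. Ccl6 had 247 and 1 UMIs in 5E1, and 289 and 0 in IgG. Cxcl2, a neutrophil attractant, was the fifth.

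Cytokines, receptors and identity genes divided in both directions. Il6 had 293 UMIs in basophil-like and 3 in mast-like cells of 5E1, and 271 and 0 in those of IgG. Osm had 192 and 16 UMIs in 5E1 and 187 and 0 in IgG. Alox5ap, the protein that hands arachidonic acid to 5-lipoxygenase, was 5.70-fold higher in basophil-like cells of 5E1 (3.51 to 9.91) and 6.52-fold higher in those of IgG (2.75 to 20.3). The tetraspanin gene Cd9 and the interferon-induced Ifitm3 also stood on the basophil side, as did Ier3 and Pim1. On the mast side was Tpsab1, by its lower 95% bounds at least 318-fold higher in 5E1 and 160-fold higher in IgG. Mrgprb2 was there too, at least 19.3-fold and 7.48-fold higher by the same bounds. Socs2, a feedback inhibitor of cytokine signalling, was 45.3-fold higher in mast-like cells of 5E1 (11.4 to 393) and 19.1-fold higher in those of IgG (6.58 to 67.0). Il1rl1, the IL-33 receptor, was 3.35-fold higher (1.53 to 7.36) and 10.2-fold higher (2.93 to 39.5). Lat2, an adaptor of IgE receptor signalling, was the remaining gene.

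**Figure D3:**
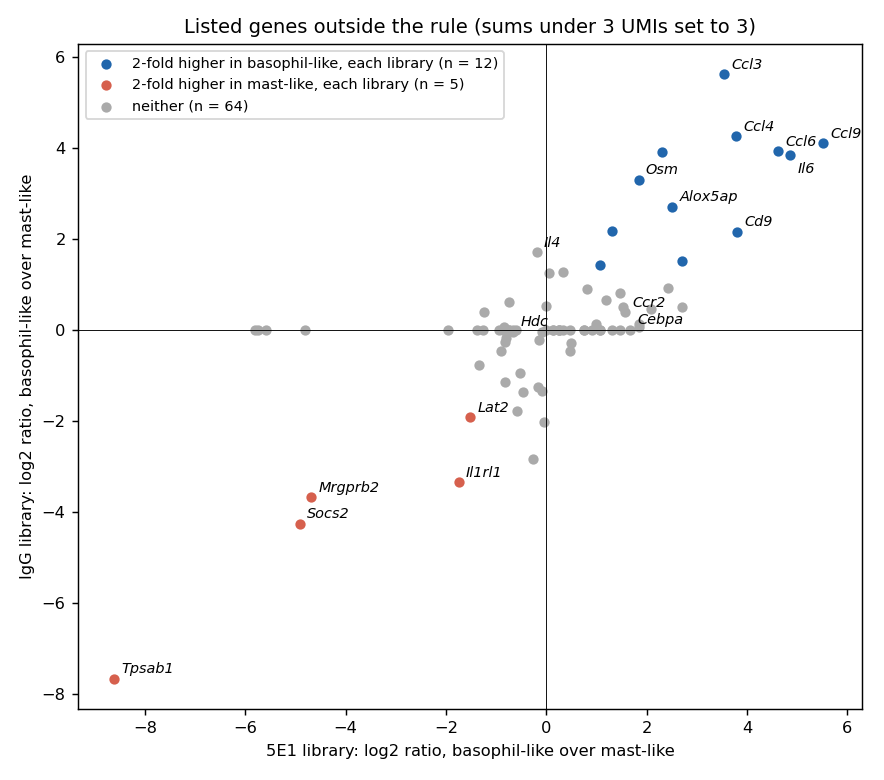
Each point is 1 of 81 listed genes outside the rule, with the log2 ratio of basophil-like over mast-like cells in the 5E1 library on the horizontal axis and in the IgG library on the vertical axis. Sums under 3 UMIs were set to 3, and a gene whose higher sum was at most 3 stands at 0. The 12 genes at the upper right, Ccl3, Ccl9 and Il6 among them, and the 5 at the lower left, led by Tpsab1, were past 2-fold in each library.

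Most genes that mast cells and basophils are known to share were present in both kinds of cell. Of the 7 listed, Fcer1a had 22 UMIs in basophil-like and 12 in mast-like cells of 5E1, and 12 and 0 in those of IgG, and Il1rl1 was past 2-fold higher in mast-like cells of each library. Hdc, the enzyme that makes histamine, had 2341 CPM in basophil-like and 3696 in mast-like cells of 5E1, and 2556 and 2618 CPM in those of IgG. Gata2, a transcription factor of both lineages, had 1193 and 861 CPM in 5E1, and 1051 and 1440 CPM in IgG. Fcer1g, the signalling chain of the IgE receptor, had 2537 and 4759 CPM in 5E1, and 2102 and 2880 CPM in IgG. Hdc and Gata2 thus differed by less than 2-fold between the kinds of cell in each library. The granule proteoglycan gene Srgn had 3519 and 6278 CPM in 5E1, and 4493 and 4320 CPM in IgG. Il4 had 755 and 861 CPM in 5E1 and 1278 and 262 CPM in IgG, where the mast-like cells held 2 UMIs.

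Basophil-like cells of 5E1 and IgG were close in most genes. Of 675 genes with at least 20 UMIs over both libraries, 26 (3.85%) were at least 2-fold higher in 5E1 and 19 (2.81%) at least 2-fold lower, and the median log2 ratio was 0.04. The 24 cells of 5E1 held 66213 UMIs and the 22 cells of IgG held 48519. Of the 7 markers shared with mast cells, 1 was past 2-fold higher (Il1rl1, with 15 and 5 UMIs, log2 ratio 1.05) and 0 lower, with a list median of 0.27 on the log2 scale. Of 6 measured genes of IgE receptor signalling, 5 of granule content and 6 of adhesion, none was past 2-fold in either direction, with list medians of 0.15, -0.05 and 0.27. Nor was any of 7 cytokine genes, 5 chemokine genes or 5 transcription factor genes, with list medians of -0.34, -0.16 and 0.18. Of 9 receptor genes 1 was past 2-fold higher, again Il1rl1, and 1 lower (Ccr1, with 8 and 12 UMIs), with a list median of -0.16. Of 15 immediate early and stress genes, which tissue dissociation can induce, 2 were higher (Fosb, with 25 and 8 UMIs, and Dnajb1, with 17 and 5) and 0 lower, with a list median of 0.11. Of 5 genes of survival and NF-kB signalling none was past 2-fold, with a list median of -0.45.

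The proteases that mark basophils were higher in 5E1 when all basophil-like cells were summed, but not under every alternative. Mcpt8 had 903 UMIs in 5E1 (range 3 to 114 per cell, median 18.5) and 538 in IgG (range 3 to 206, median 12), a ratio of 1.23 (1.10 to 1.37). Prss34 had 413 UMIs in 5E1 (range 0 to 70, median 2) and 217 in IgG (range 0 to 97, median 0), a ratio of 1.39 (1.18 to 1.65). The cells of the libraries overlapped throughout. A single IgG cell held 38.3% of that library's basophil-like Mcpt8 and 44.7% of its Prss34. Without the cell with most UMIs of the gene in each library, the log2 ratio was 0.75 in place of 0.30 for Mcpt8 and 1.02 in place of 0.48 for Prss34. Without the cells that could be doublets, 6 of 5E1 and 5 of IgG, it was 0.05 for Mcpt8 and -0.14 for Prss34. In the cells with Xist and no Y-linked UMI it was 0.73 for Mcpt8 and 1.26 for Prss34. In cells with under 10 Prss34 UMIs it was -0.20 for Mcpt8. That cut left out 11 of 24 cells of 5E1 and 4 of 22 of IgG, which were richer in Mcpt8. It therefore cannot show how many cells carry the direction. The directions of Mcpt8 and Prss34 depended on which cells were entered. Cpa3 had 49 UMIs in 5E1 and 32 in IgG, a ratio of 1.12 (0.704 to 1.81). Both Mcpt8 and Prss34 chose the cells, and these values are a description.

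Prss34 was uneven among the basophil-like cells. It reached at least 10 UMIs in 11 of 24 cells of 5E1 (45.8%, interval 25.6 to 67.2%) and in 4 of 22 cells of IgG (18.2%, 5.19 to 40.3%), a limit set after the values were seen. Close to that limit, 0 cells of 5E1 and 2 of IgG held 5 to 9 UMIs, and 1 of each held 10 to 14. At least 1 UMI was found in 14 of 24 cells of 5E1 and 9 of 22 of IgG. In the cells of all other clusters, most of which should lack the gene, that share was 0.0662% in 5E1 and 0.0992% in IgG, at median depths of 4758.5 and 4620 UMIs against 2780.5 and 2193.5 in the basophil-like cells. At the limit of 10 UMIs, 0 cells of other clusters in 5E1 and 3 in IgG passed. Outside cluster 3, 2 cells of 5E1 and 11 of IgG lay on the basophil side, so the limit to cluster 3 left out more such cells of IgG. After thinning to 1000 UMIs, 12 of 24 cells of 5E1 and 8 of 22 of IgG held a UMI. The intervals of the shares overlapped between the libraries.

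Summed over cells, those with at least 10 Prss34 UMIs carried less of most chemokine transcripts in each library. Mcpt8, which chose the cells together with Prss34, had 21944 CPM in these cells and 4578 CPM in the others in 5E1, and 30111 and 5274 CPM in IgG, where 1 cell held 206 of their 342 UMIs. These Mcpt8 levels are a description. Ccl4 stood at a ratio of 0.790 (0.710 to 0.879) in 5E1 and of 0.434 (0.358 to 0.522) in IgG. Ccl6 stood at 0.634 (0.487 to 0.823) in 5E1 and 0.270 (0.166 to 0.417) in IgG, and Ccl3 at 0.773 (0.687 to 0.871) and 0.507 (0.416 to 0.613). These intervals leave out differences between cells. In IgG, 1 of the 4 Prss34-rich cells held 21 of their 22 Ccl6 UMIs. In 5E1, Ccl4 ran from 10 to 156 UMIs per Prss34-rich cell and from 7 to 100 in the other cells. Of the 5 measured chemokine genes, 4 in 5E1 and 5 in IgG were lower in the Prss34-rich cells, with median log2 ratios of -0.37 and -1.24. Over all 675 genes, 338 were lower in 5E1 and 330 in IgG, with medians of -0.0024 and 0.03. Of 15 immediate early genes, 10 in 5E1 and 11 in IgG were lower, with medians of -0.47 and -0.76. Nfkbia, the inhibitor of NF-kB that NF-kB itself induces, stood at 0.500 (0.389 to 0.640) in 5E1 and 0.561 (0.367 to 0.830) in IgG, and Klf2 at 0.330 (0.136 to 0.731) and 0.145 (0.0171 to 0.557). Ier3 went the other way, at 2.16 (1.65 to 2.85) and 1.33 (1.01 to 1.72). Cytokine genes did not share one direction, with 2 of 7 lower in 5E1 and 6 of 7 in IgG. The Prss34-rich cells were also deeper. Their median was 3055 UMIs, against 2598 in the other cells, in 5E1, and 2615.5 against 2097 in IgG, and the part of depth in these ratios was not tested. The cells that could be doublets, 6 of 5E1 and 5 of IgG, were kept in this split. In 5E1 they lay in both groups, and in IgG only among the other cells. Their part in these ratios was not tested.

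**Figure D4:**
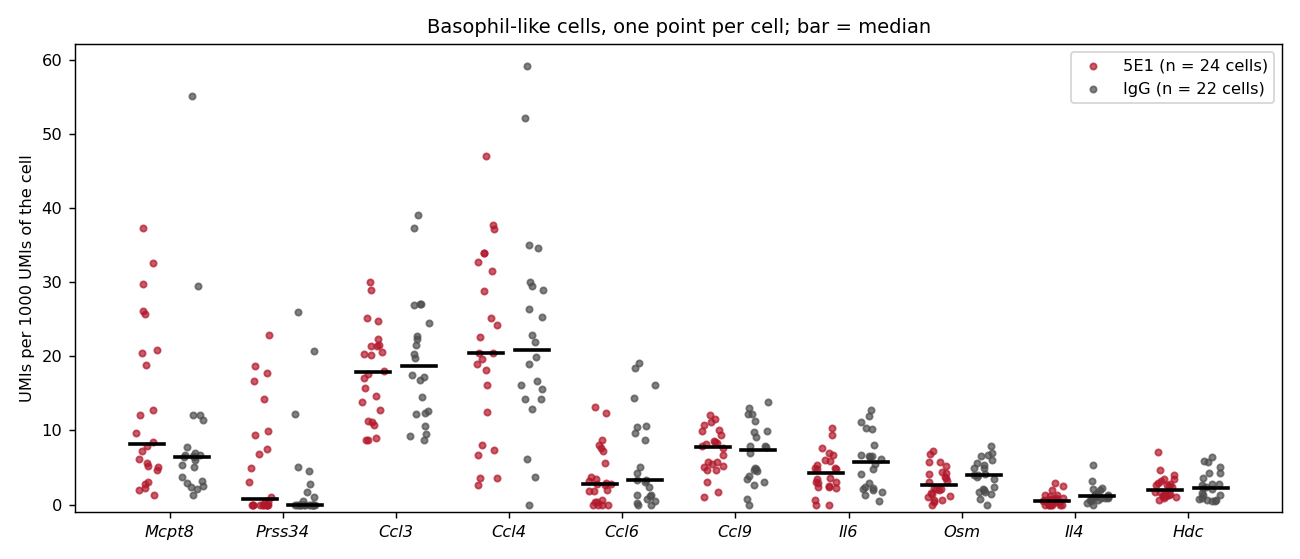
Each point is 1 basophil-like cell, with its UMIs of a gene per 1000 UMIs of the cell on the vertical axis, 5E1 left and IgG right for each gene; bars are medians. Prss34 is at 0 in many cells and reaches 22.9 in 5E1 and 26.0 in IgG, whereas every cell of both libraries holds Ccl3, at 8.67 or more in 5E1 and 8.76 or more in IgG.

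Cytokine transcripts were abundant, and Il4, Osm and Il6 were lower in 5E1 when all basophil-like cells were summed. Il4 had 50 UMIs in the 24 cells of 5E1 (range 0 to 9, median 1) and 62 in the 22 cells of IgG (range 0 to 9, median 2), a ratio of 0.591 (0.399 to 0.872). It was the cytokine gene with the lowest ratio, at log2 values of -0.33 to -0.99 under the alternatives tried, and the per-cell ranges overlapped fully. Osm had 192 UMIs in 5E1 and 187 in IgG, a ratio of 0.752 (0.612 to 0.925). Il6 had 293 UMIs in 5E1 (range 0 to 23, median 11.5) and 271 in IgG (range 1 to 29, median 9.5), a ratio of 0.792 (0.669 to 0.938). Its log2 ratio of -0.34 was 0.18 in cells with at least 10 UMIs of the 6 proteases. Il13, which acts with Il4 in type 2 responses, had 24 and 25 UMIs, and its ratio of 0.703 (0.385 to 1.28) had an interval that included 1. Tnf with 25 and 12 UMIs and the macrophage growth factor gene Csf1 with 28 and 18 also had intervals that included 1. None of these 6 genes reached a 2-fold difference.

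Among chemokines, Ccl6 was lower in 5E1, with 247 UMIs in 5E1 (range 0 to 37, median 6) and 289 in IgG (range 0 to 47, median 6.5), a ratio of 0.626 (0.526 to 0.745). Ccl3, with 1130 and 932 UMIs, stood at 0.888 (0.814 to 0.970), and Ccl4, with 1387 and 1093 UMIs, at 0.930 (0.858 to 1.01). The log2 ratio of Ccl3, -0.17, was 0.09 without the cells that could be doublets. Ccl9 stood at 1.03 (0.893 to 1.19) and Cxcl2 at 0.896 (0.616 to 1.31). Ccl6 was also high elsewhere in the lung. The authors' cluster 5 reached 8041 CPM in the 5E1 and 4972 CPM in the IgG library, against 2823 and 5146 CPM in the mast cells and basophils together.

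The IgE receptor and the histamine pathway differed by less than their counting error. The receptor chains Fcer1a, with 22 and 12 UMIs, Ms4a2, with 36 and 20, and Fcer1g, with 168 and 102, stood at ratios of 1.34 (0.637 to 2.98), 1.32 (0.743 to 2.40) and 1.21 (0.938 to 1.56). Hdc stood at 0.916 (0.719 to 1.17), Gata2 at 1.14 (0.788 to 1.65), Cd200r3 at 1.01 (0.717 to 1.43) and Cyp11a1 at 0.913 (0.626 to 1.34). Hdc had the narrowest interval of these 4 genes, and the others still allow ratios as low as 0.626 or as high as 1.65. Alox5ap stood at 1.15 (0.963 to 1.38). Alox15, a lipoxygenase, had 11 UMIs in 5E1 and 18 in IgG, a log2 ratio of -1.13, which was 0.36 in the cells with Xist and no Y-linked UMI.

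Single genes beyond these lists were ranked among 97 with at least 100 UMIs. The highest log2 ratios belonged to S100a10 (0.66, 119 and 55 UMIs), a partner of annexin A2, and Anxa1 (0.59, 87 and 42 UMIs), which encodes annexin A1. Also among the 10 highest were S100a11, Prss34, Uqcrh, Arpc1b and Arhgdib. The lowest belonged to B2m (-0.86, 48 and 64 UMIs), the light chain of MHC class I, followed by Il4 and Ccl6, Ier3 (-0.55) and Ifitm1 (-0.54, 1110 and 1179 UMIs), an interferon-induced membrane protein. Ifitm1 was far higher in the mast cells and basophils together than elsewhere, with 13103 CPM in the 5E1 and 20994 CPM in the IgG library, against at most 682 and 658 CPM in any other cluster. Those last values, of cluster 13, were not lower in 5E1. In the other cells of cluster 3, Ifitm1 was lower in 5E1, with 385 CPM against 602 in IgG. B2m was also lower in 5E1 there, with 2376 and 2656 CPM. Ifitm3, the only measured gene of the interferon list, had 21 UMIs in 5E1 and 51 in IgG, a log2 ratio of -1.71. In cells with Xist and no Y-linked UMI that ratio was -0.81. A single IgG cell held 25.5% of the Ifitm3 UMIs of the basophil-like cells of IgG. Ifitm3 was also lower in 5E1 in the other cells of cluster 3, with 75.9 CPM in 5E1 and 113 CPM in IgG. The same held in cluster 6, where it was highest, with 3742 and 6001 CPM. Tnfaip3, a brake on NF-kB signalling, had 66 UMIs in 5E1 (range 0 to 6 per cell) and 27 in IgG (range 0 to 4), a ratio of 1.79 (1.13 to 2.92). The club cell transcript Scgb1a1 had 143 UMIs in 5E1 and 261 in IgG, whereas the type 2 alveolar cell list had 695 and 721 CPM and the fibroblast list 287 and 268 CPM in the basophil-like cells.

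**Figure D5:**
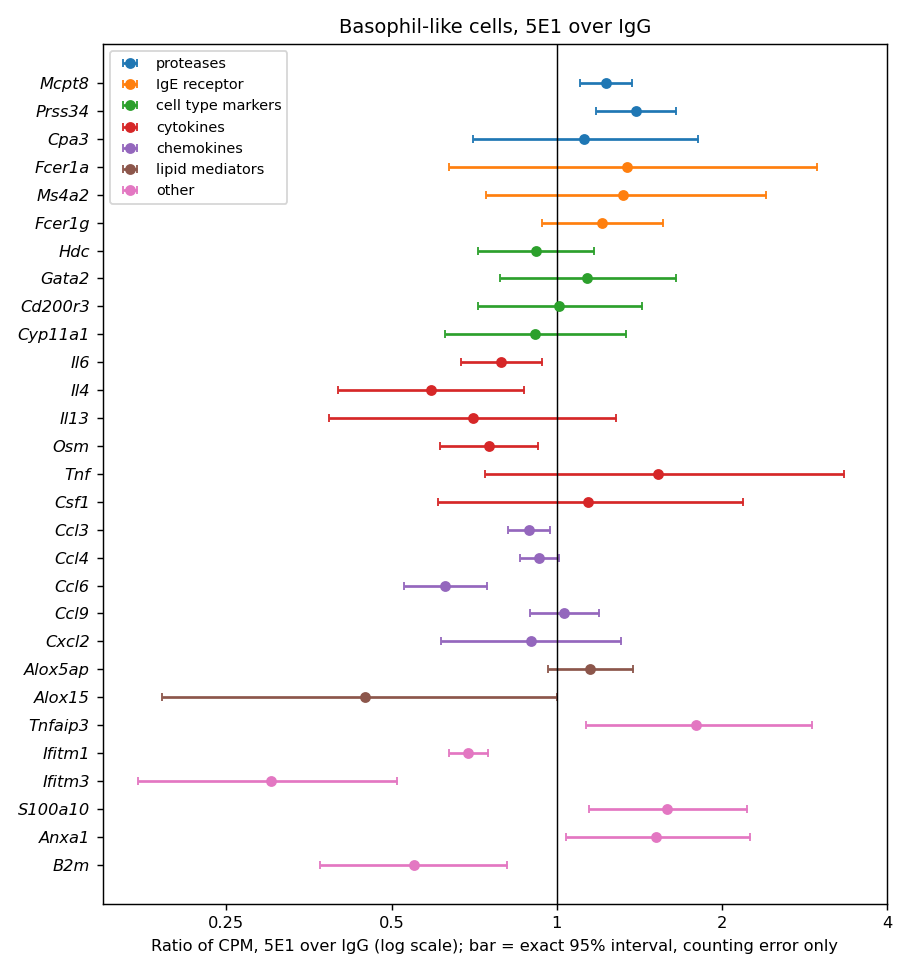
Points give the ratio of CPM, 5E1 over IgG, in basophil-like cells on a log scale, with exact 95% intervals for counting error. Il4, Il6, Osm, Ccl3, Ccl6, Ifitm1, Ifitm3 and B2m lie below 1 with their intervals, Mcpt8, Prss34, Tnfaip3, S100a10 and Anxa1 lie above 1, and the IgE receptor genes have intervals that include 1.

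Genes of the Hedgehog pathway were not detected in basophil-like cells. The 10 genes listed (Ptch1, Gli1, Gli2, Gli3, Smo, Sufu, Hhip, Boc, Cdon and Gas1) were at 0 UMIs in both libraries. At this depth a count of 0 allows up to 45.3 CPM in the 5E1 and 61.8 CPM in the IgG cells, so low expression was not detectable. The mast-like cells held 1 UMI of Ptch1 in 5E1 and 0 in IgG.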

How the data were processed

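Lung cells of the 5E1 and IgG pools were profiled by single-cell RNA sequencing, and the treatment named in the labels gave each library its group. The authors deposited raw UMI counts per gene and cell barcode, 10519 barcodes in the 5E1 and 15021 in the IgG matrix, made with Cell Ranger 3.1.1 and mm10 per the submitters' processing notes; the headers of the matrices give software version 3.0.0. Cluster numbers and libraries of the annotated cells come from the table the authors deposited, whose header is shifted by 1 column from the middle on. The sources used here do not give the settings of cell calling or clustering. Depth was 58890639 UMIs in the 5E1 and 77436890 in the IgG library.

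Counts were summed over cells in Python 3.11.15 with numpy 2.4.6, pandas 2.3.3 and scipy 1.17.1 and scaled to CPM. Log2 ratios used 0.5 UMI added to each sum and genes with at least 20 UMIs. Symbols with several IDs were summed. Where a sum was 0, a fold is given by its exact lower 95% bound. The upper bound of a level at 0 used 3 counts over the group. Intervals were tried only on Poisson counts simulated under their own model. That model leaves out differences between cells, so the trial does not show how they hold for these data. No doublet caller was run; cells with 2 or more UMIs of another type's list were only counted and left out as an alternative. Genes named are the 6 of the rule, listed genes with at least 20 UMIs, the 10 highest and 10 lowest ratios among genes with at least 100 UMIs and 100 CPM, and the 15 highest folds over other cells; the ranking left out mitochondrial, ribosomal, haemoglobin, immunoglobulin, predicted and sex-linked genes and genes under 5% of their highest cluster. Genes outside this rule, and a few with fewer UMIs, are named as markers or after their values were seen. The cells and gene lists were chosen with earlier results of these data known. The split at 10 Prss34 UMIs and 6 alternatives were added after seeing the data. The result for 1 gene is not reported here.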

Additional observations from a re-analysis of the deposited data

Results flagged for a closer look

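The rule's 6 proteases also gave signal in data that the comparisons do not use. In the 5E1 library, 14 of 9066 annotated cells outside cluster 3 held at least 5 UMIs of them, against 16 of 13110 in the IgG library. By the same shares, 2 of those cells in 5E1 and 11 in IgG lay on the basophil side, and 8 and 4 on the mast side. A further 2 in 5E1 and 1 in IgG were mixed, and 2 and 0 were undetermined. The 14 and 16 cells were spread over 7 clusters in each library. Their medians were 6708.5 UMIs in 5E1 and 4833.5 in IgG, above the 2798 and 2222 of the cells described above.

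Among barcodes that the authors left out of their annotation, 5 of 1065 in the 5E1 library and 3 of 1512 in the IgG library held at least 5 UMIs of the 6 genes. Of these, 4 in 5E1 and 2 in IgG lay on the mast side, 1 and 0 on the basophil side, and 0 and 1 were mixed. All of these barcodes together had medians of 854 UMIs in 5E1 and 615 in IgG. What these cells and barcodes are was not tested.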

How the results depend on the processing

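Cell numbers kept to within the counting interval of 31 and 25 under thresholds of 3 or 10 UMIs, without Cpa3 and after thinning; without the limit to cluster 3 they were 45 in the 5E1 and 41 in the IgG library. With at least 10 UMIs of the 6 genes, the share of basophil-like cells was 76% in the 5E1 and 82.35% in the IgG library, within its intervals. Limits of 90% and 10%, or of 50%, placed every cell as before, since no cell lay between them. Under these limits the share could not change. Nor, with limits of 90% and 10%, could the counts of 12 and 5 genes 2-fold higher in basophil-like and mast-like cells. The count of genes 2-fold higher in 5E1, 26, depended on the genes and cells entered: it was 7 after thinning, 9 in cells with Xist and no Y-linked UMI, 12 in cells with under 10 Prss34 UMIs, 3 with at least 50 UMIs per gene, 359 with at least 5, and 43 over all cells of both kinds. The count 2-fold lower, 19, was 8 after thinning, 9 in cells with Xist, 3 with at least 50 UMIs and 270 with at least 5. These settings change the number of genes or cells entered; the cause was not tested otherwise. Of 957 values for 87 single genes, 901 stayed within the counting interval of the reported ratio and 98, in 48 genes, had the other sign. The 957 include 87 values each from the 90% limit and from leaving out dividing cells. Both settings kept the same cells, so these values could not move. In cells with Xist and no Y-linked UMI, 23 of the 87 genes lay outside the counting interval of all basophil-like cells. In the same cells, 1 further gene that had been past 2-fold changed sign. With 5 such cells of 5E1 and 14 of IgG, these values have wider counting errors of their own, which were not computed. They therefore cannot show that a gene shifted. Past 2-fold, Alox15 turned to 0.36 in cells with Xist and Dnajb1 to -0.13 after thinning. Of 22 genes whose interval excluded 1, 6 turned under some alternative: Mcpt8 to -0.20 and Prss34 to -1.86 in cells with under 10 Prss34 UMIs, Prss34 to -0.14 and Ccl3 to 0.09 without possible doublets, Il6 to 0.18 in cells with at least 10 UMIs of the 6 genes, and Srgn to 0.03 and Rgs2 to 0.02 in cells with Xist. The cut at 10 Prss34 UMIs was made on Prss34 itself and left out cells richer in Mcpt8, so under it these 2 genes were not tried independently. Of 130 list medians 127 stayed; the chemokine median was 0.04 in cells with at least 10 UMIs of the 6 genes, -0.42 in cells with Xist and 0.17 without possible doublets. Median-ratio scaling moved no single gene out of the counting interval of its reported ratio. Leaving out dividing cells changed nothing, since there were none. No paired analysis was possible because each condition has 1 library, and for the same reason no replicate could be left out. Small sums of UMIs limit the precision of most genes.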
